A study of Danio rerio with 18 samples.

Results

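Claudins and their partners at the tight junction were followed through genetic ablation of the retinal pigment epithelium (RPE) in larval zebrafish. The genes were chosen by name, with earlier results of these data known. Taken were all rows named as a claudin or claudin domain gene (cldn), a zonula occludens scaffold (tjp) or an occludin (ocln). Rows named as a MARVEL domain gene (marveld) or a junctional adhesion molecule (jam2, jam3, f11r) were taken as well. This gave 48 of the 34326 genes listed, made up of 29 claudins, 2 claudin domain genes, 6 junctional adhesion molecules, 5 scaffolds, 2 occludins and 4 MARVEL domain genes. After a filter on low counts 35 of the 48 were tested, and the 13 others had a mean of at most 0.134 CPM (counts scaled to one common library total) and no single library above 2.09 CPM.

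RNA was sequenced in bulk from at most 1000 eGFP-positive cells per library, which had been sorted from dissociated eyes and are labelled retinal pigment epithelium. All larvae were raised in 1.5X phenylthiourea, which stops pigment formation, from 0.25 to 5 days post fertilisation (dpf). Ablated larvae (MTZ+) were then exposed to 10 mM metronidazole for 24 h, and unablated larvae (MTZ-) were not. The labels name neither the transgene that carries eGFP nor the cells in which its promoter is active, and no group had the drug without ablation, so that drug and ablation cannot be told apart. Cells were collected 2, 4 and 7 days post-injury (dpi), with 3 libraries for each of the 6 groups. Nothing in the labels says that the 3 came from separate clutches, so p-values measure the spread between these libraries, which may be technical.

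Tight junctions seal the space between neighbouring epithelial cells close to their apical end. Claudins span the membrane and set which ions and water may pass, occludin and the other MARVEL proteins join their strands, and junctional adhesion molecules are immunoglobulin proteins that bind across the gap and anchor polarity complexes. The zonula occludens proteins lie beneath the membrane and tie all of these to actin. In the RPE this junction forms the outer blood-retinal barrier, between the choroidal blood supply and the photoreceptors.

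The libraries held between 21.9 M and 60.4 M counts. The sorted cells carried RPE transcripts at high levels: 20 of 20 RPE marker genes were found and summed to 55060 to 189400 CPM. The visual cycle gene rpe65a stood at 3665 CPM or more in all 18 libraries, while ttr was listed in few libraries and never above 0.272 CPM. Replicates of a group correlated at 0.779 to 0.943 across genes. One library, unablated 4 dpi replicate 1, has a sequencing name that calls it positive, and its label states that the name was an error. Its group follows the label. In bulk RNA, fewer cells of a type and less RNA per cell cannot be told apart, which holds for each difference below.

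Which junction genes the sorted cells use was read from the deposited TPM, a level per length of transcript. cldn2 (ENSDARG00000044387, chromosome 21, 37955173 to 37961801 in GRCz10) had the highest mean, 505 TPM over 18 libraries, and cldn5a (ENSDARG00000043716, chromosome 8, 4641497 to 4643053) the second, 234 TPM. Claudin-2 forms pores for cations and water in mammals, and claudin-5 is the sealing claudin of mammalian brain endothelium. Together these 2 genes made up 78.1% to 96.4% of the summed claudin TPM in every library, and the other 27 claudins together summed to 21.0 to 158 TPM.

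Only 3 of the 48 genes exceeded a mean of 100 TPM, the third being jam2a with 133 TPM. A further 6 lay between 10 and 100 TPM, 15 between 1 and 10, and 24 below 1. Ranks 4 to 10 were jam3b (94.0 TPM), tjp2a (34.0), cldn12 (22.6), cldn7a (15.8), cldn15b (10.4), tjp2b (10.3) and tjp1a (9.17). Among these 10 genes were 5 claudins, the genes jam2a and jam3b for the partner adhesion proteins JAM-B and JAM-C, and 3 scaffolds.

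**Figure D1:**
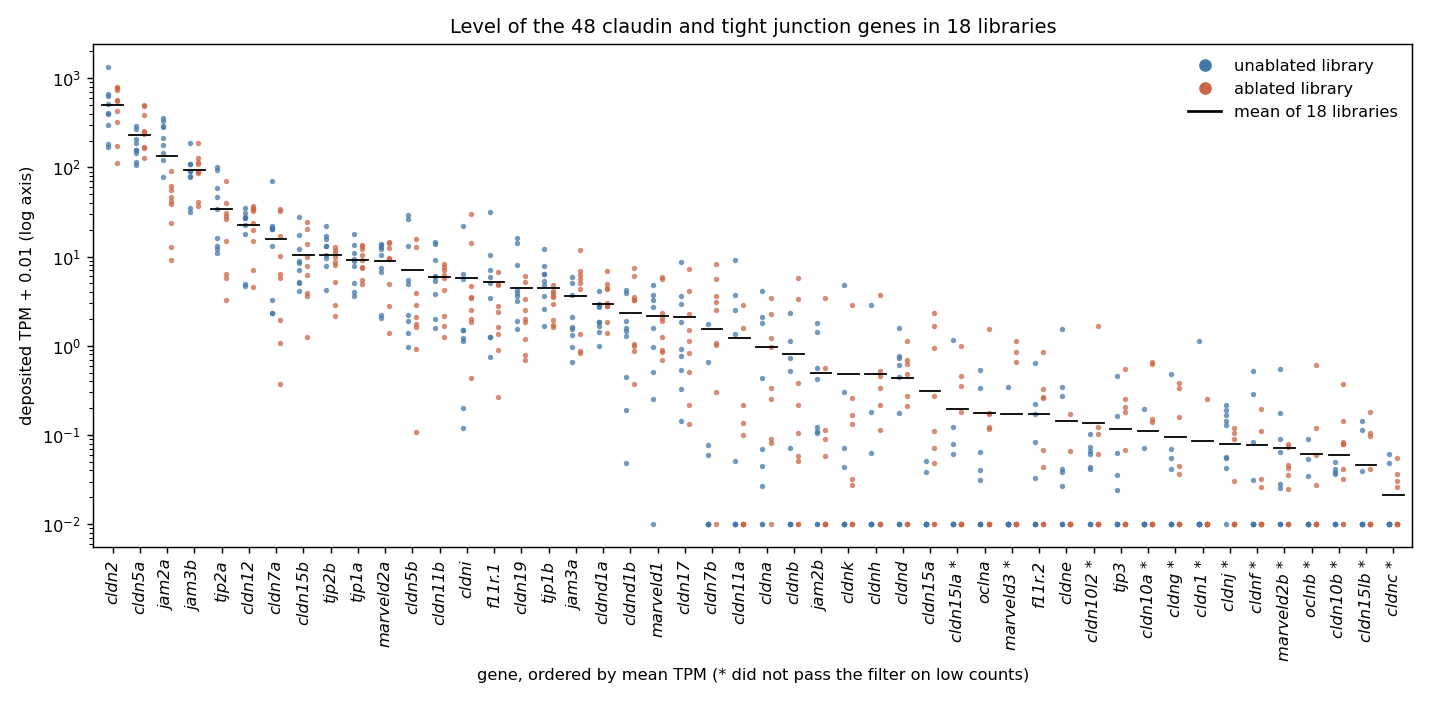
Deposited TPM of the 48 genes in each of 18 libraries (log axis, with 0.01 added so that a listed 0 can be drawn), ordered by mean TPM, with 9 unablated libraries in blue, 9 ablated in orange and the mean as a bar. cldn2, cldn5a and jam2a lead with means of 505, 234 and 133 TPM, and 24 genes have means below 1 TPM.

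The members lie on 17 chromosomes, and 16 of them stand within 50 kb of another member, in 6 groups. In 4 of these groups every gene had a mean below 1 TPM, and each of the 2 others held 1 gene at 5.13 TPM or more beside 1 gene below 1 TPM. Tricellulin, the MARVEL protein of corners where 3 cells meet, is encoded by marveld2a (chromosome 10, 2919871 to 2944236) and had a mean of 8.87 TPM, whereas oclna, the occludin gene beside it (2897604 to 2915729), had 0.168 TPM. f11r.1, one of a pair of genes for JAM-A on chromosome 5, had 5.13 TPM and its neighbour f11r.2 had 0.160 TPM. The claudins in rows of 4 on chromosomes 15 (cldnj, cldne, cldnf, cldna) and 21 (cldnh, cldnc, cldnb, cldnd) are among those 4 groups. Near-identical copies may share reads, and how reads of such copies were counted is not given in the sources used here.

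Ablated and unablated larvae were compared at each time with edgeR's quasi-likelihood test, fitted to all 20093 tested genes and adjusted by the Benjamini-Hochberg method, with 0.05 as the threshold. Because replicates of the same number deviated together, each comparison was also fitted with the 9 pairs as a block. At 2 dpi 1 of the 35 tested members passed, jam2a, which was lower, against 2.25% of all tested genes. With the block 5 passed and all were lower, jam2a, tjp2a, tjp2b, cldn19 and cldn7a, against 14.4% of all genes. Counts of 1 and 5 among 35 stood near the share of all genes. Without the block the median log2 fold change of the members was -0.29 and that of all genes -0.03. With the block these medians were -0.08 and -0.02, and 17 of the 35 members were positive.

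At 4 dpi none of the members passed in the fit without the block, where 0.0946% of all genes did. At an unadjusted p under 0.05 there were 4 members, against 11.7% of all genes, and DESeq2 called 2, jam2a lower and cldn7b higher, against 3.55%. With the block 3 passed, jam2a lower and cldn5a and cldn7b higher, against 8.62% of all genes. At 7 dpi none passed in either fit, against 0% and 0.00498% of all genes. There 4 members had an unadjusted p under 0.05 without the block and 6 with it, against 6.61% and 14.9% of all genes, and DESeq2 called 1, cldn7b, as higher, against 0.627%.

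Averaged over the 3 times with equal weight, 4 members passed, jam2a and tjp2b lower and cldn7b and cldn15a higher, against 8.03% of all genes. Of these, cldn15a had passed the filter on low counts through ablated libraries alone, and cldn7b with their help. With the block 8 passed, jam2a, tjp2a, tjp2b, tjp1b and cldn19 lower and cldn5a, cldn7b and cldn15a higher, against 21.5% of all genes. Counts of 4 and 8 among 35 stood near the share of all genes, and nothing about the families is read from them. The member median was 0.07 and that of all genes -0.04 on the log2 scale without the block, and 0.09 and -0.03 with it.

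**Figure D2:**
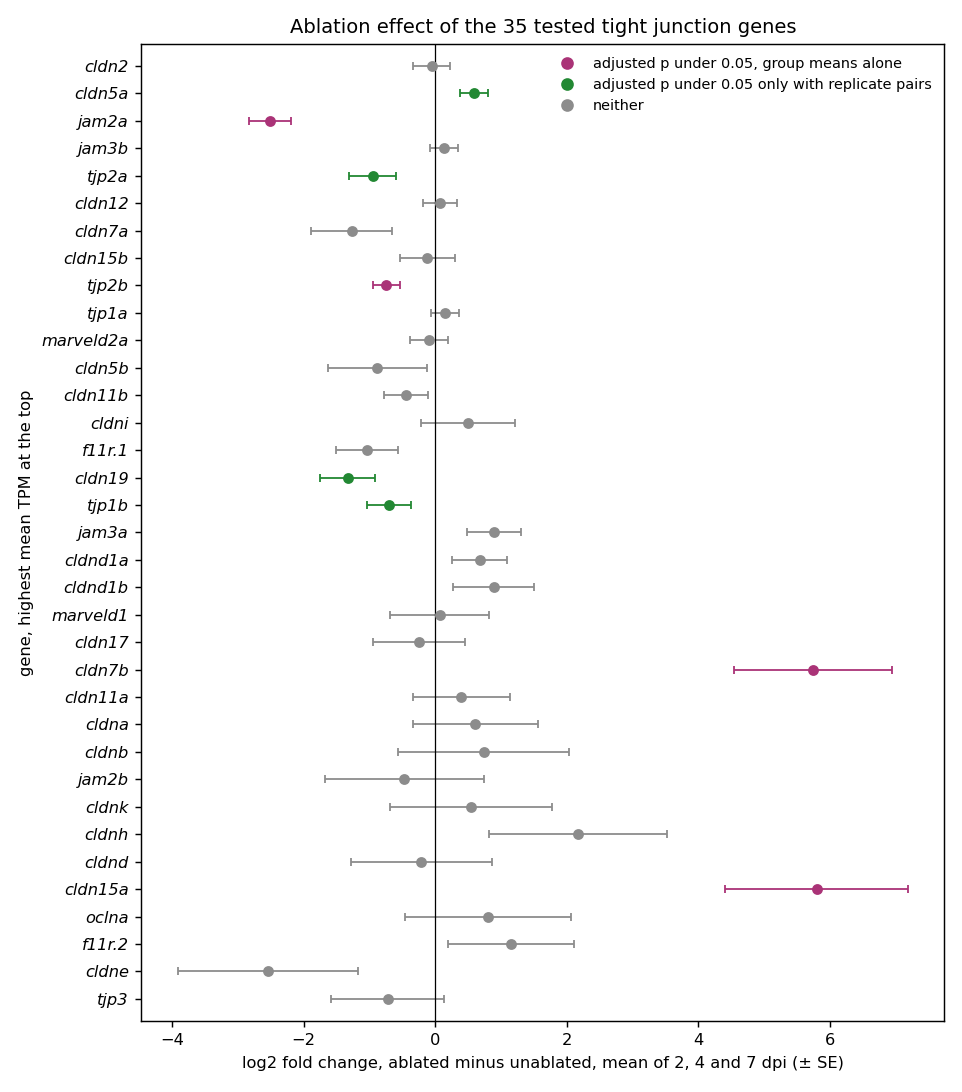
Log2 fold change, ablated minus unablated, averaged over 2, 4 and 7 dpi, with its standard error, for the 35 tested genes ordered by mean TPM, in the fit without the block. Purple genes passed in that fit, green genes passed with the block alone and grey genes in neither. jam2a stands at -2.51 with a narrow error, cldn7b and cldn15a lie above 5 with wide errors and low counts, and the error bars are one standard error to each side.

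Of the junctional adhesion molecules 1 was called, jam2a, without the block at 2 dpi (2.25% of all genes passed) and in the mean over times (8.03%). This gene (ENSDARG00000058996, chromosome 1, 599405 to 613068) encodes JAM-B, whose zebrafish protein binds that of jam3b in trans, as known from myoblast fusion. At 2 dpi it stood at 53.0, 188 and 193 CPM in unablated and at 5.73, 30.9 and 20.6 CPM in ablated libraries. At 4 dpi the values were 213, 186 and 239 CPM against 24.2, 24.9 and 32 CPM. At 7 dpi they were 114, 214 and 144 CPM against 59.2, 59.0 and 33.2 CPM. The groups did not overlap at any of the 3 times, and the ablated library was the lower in 9 of 9 pairs. Among all tested genes 22.2%, 24.7% and 9.32% had groups that did not overlap at 2, 4 and 7 dpi. Of the 35 tested members 3 were higher and 5 lower in all ablated libraries at 2 dpi. At 4 dpi 2 were higher and 4 lower, and at 7 dpi 0 were higher and 1 lower.

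The log2 fold change of jam2a was -2.92 at 2 dpi (SE 0.57, adjusted p = 0.0175), which is 7.57-fold lower. It was -2.98 at 4 dpi (SE 0.57), where the adjusted p of 0.0565 missed the threshold without the block and was 0.000714 with it. At 7 dpi it was -1.64 (SE 0.54, adjusted p = 0.714), and with the block -1.64 (SE 0.25, adjusted p = 0.0606). The mean over times was -2.51 (SE 0.32, adjusted p = 0.000685), 5.70-fold lower. The call at 2 dpi ended when unablated replicate 2, unablated replicate 3 or ablated replicate 3 was left out (adjusted p = 0.0718, 0.0661 and 0.0515), or when only the 2 dpi libraries were fitted (adjusted p = 0.11), whereas the mean over times passed whichever of the 18 libraries was left out.

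jam3b (ENSDARG00000061794, chromosome 21, 24948365 to 25010386) is the gene for JAM-C, and it passed in no comparison. Its libraries lay between 152 and 206 CPM in unablated and between 177 and 243 CPM in ablated larvae at 2 dpi. At 4 dpi they lay between 227 and 499 and between 258 and 429 CPM, and at 7 dpi between 191 and 255 and between 212 and 321 CPM. The groups overlapped at every time, and the mean log2 fold change was 0.14 (SE 0.21, adjusted p = 0.769). The counts of jam2a over those of jam3b in the same library were 0.264 to 1.23 in the 9 unablated and 0.0276 to 0.280 in the 9 ablated libraries.

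The other 4 genes of this family were low. jam3a ranged from 1.41 to 6.95 CPM in unablated larvae and from 1.53 to 11.7 CPM in ablated larvae, and its mean log2 fold change was 0.89 (SE 0.41, adjusted p = 0.196). f11r.1 was lower in all ablated libraries at 4 dpi, with 33.3, 8.56 and 6.84 CPM against 6.02, 4.20 and 2.04 CPM, and overlapped at 2 and 7 dpi. Its log2 fold change at 4 dpi was -1.99 (SE 0.84, adjusted p = 0.351). jam2b reached at most 2.87 CPM and was at 0 in 6 libraries. It was lower in all ablated libraries at 2 dpi, with 0.37, 2.38 and 0.194 against 0, 0.133 and 0 CPM. f11r.2 reached 0.562 CPM and was at 0 in 7 libraries. Neither jam2b nor f11r.2 passed in any comparison.

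Markers of other cells moved with jam2a at 2 dpi. The 8 Mueller glia markers, all found, summed to 3729 to 6100 CPM without ablation and to 489 to 1179 CPM with it, and 71.0% of the sum over all libraries came from glula. Marker by marker, 3 of the 8 had a positive log2 fold change at 2 dpi. The 12 retinal neuron markers summed to 60.8 to 81.3 against 6.82 to 14.5 CPM, the 14 photoreceptor markers to 95.0 to 961 against 58.7 to 64.7 CPM, and the 12 lens markers to 17.1 to 115 against 4.06 to 11.3 CPM. The 10 oligodendrocyte and Schwann cell markers summed to 46.3 to 79.9 against 12.1 to 22.8 CPM, with 60.2% of the sum from sox10. The RPE list itself summed to 139300 to 189400 CPM against 83420 to 91380 CPM. The sum over other pigment cell and neural crest genes was higher, 455 to 944 against 1373 to 2292 CPM, but 76.2% of it came from pnp4a (226, 584 and 715 against 1188, 2048 and 1180 CPM), and only 1 of its 8 markers had a positive log2 fold change (median -0.61). In all, 7 of 12 sums did not overlap at 2 dpi.

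At 4 dpi, where jam2a did not overlap either, 10 of the 12 marker lists did. The 2 others were oligodendrocyte and Schwann cell genes (73.9 to 133 against 26.5 to 57.0 CPM) and lens genes (5.19 to 236 against 1.51 to 3.45 CPM). At 7 dpi all 12 lists overlapped and jam2a did not. Sums that overlap do not mean equal levels. Of 11 tested retinal neuron markers 2 had a positive log2 fold change at 4 dpi (median -1.59) and 3 at 7 dpi (median -1.29). Of 14 photoreceptor markers 12 were positive at 4 dpi (median 0.8) and 2 at 7 dpi (median -1.34). Of 8 Mueller glia markers 6 were positive at both times (medians 2.52 and 1.28). None of the neuron, photoreceptor, glia or lens lists had more than 1 marker at 0 in all libraries of a group. The part of these cells in the jam2a result was not tested.

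**Figure D3:**
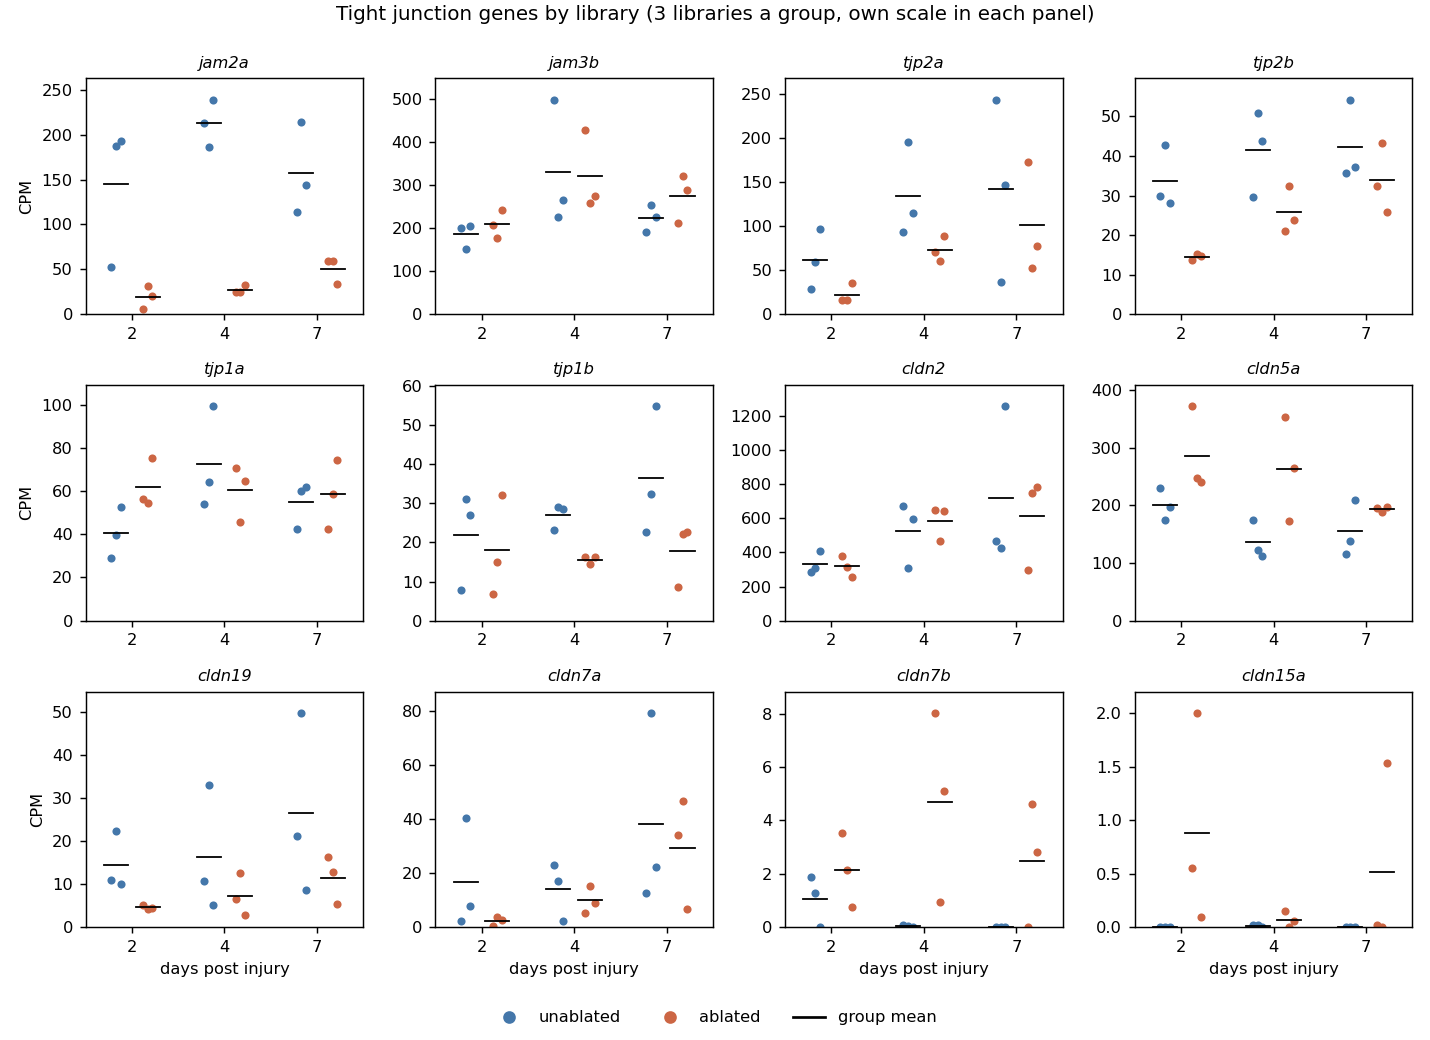
CPM of 12 junction genes in each library, by days post-injury, with unablated libraries in blue, ablated in orange, the group mean as a bar and an own linear axis from 0 in each panel. jam2a is separated at all 3 times (ablated 5.73 to 59.2 CPM), jam3b overlaps throughout, tjp2b is separated at 2 dpi, and cldn7b and cldn15a are near 0 in unablated libraries at 4 and 7 dpi.

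**Figure D4:**
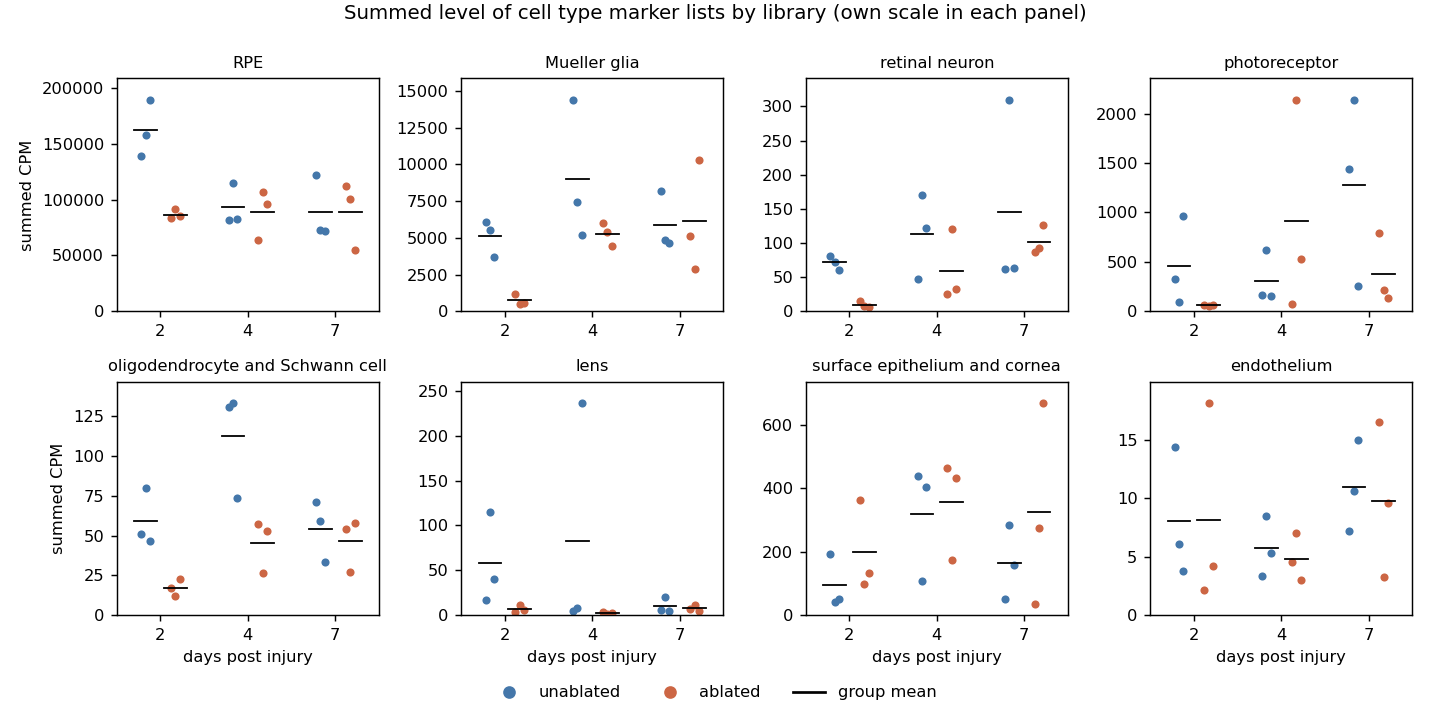
Summed CPM of 8 of the 12 cell type marker lists in each library, by days post-injury, drawn in the same way. Mueller glia, retinal neuron, photoreceptor, lens, oligodendrocyte and RPE sums are lower in all ablated libraries at 2 dpi, and at 7 dpi each list overlaps between groups.

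Of the 5 zonula occludens scaffolds tjp2b was called by ablation in the mean over times, where 8.03% of all genes passed. tjp2a and tjp1b were called by ablation with the block alone, where 21.5% of all genes passed in the mean and 14.4% at 2 dpi. Nothing about the family is read from these counts. tjp2b (ENSDARG00000023443, chromosome 8, 11287586 to 11505136), 1 of 2 genes for ZO-2, had 29.8, 42.9 and 28.1 CPM in unablated and 13.7, 15.3 and 14.6 CPM in ablated libraries at 2 dpi. At 4 dpi it had 29.5, 50.9 and 43.9 against 21.1, 32.3 and 23.8 CPM, and at 7 dpi 35.7, 54.2 and 37.2 against 32.5, 43.2 and 25.8 CPM. The groups were apart at 2 dpi and overlapped later, and the ablated library was the lower in 9 of 9 pairs. At 2 dpi the log2 fold change was -1.21 (SE 0.35, adjusted p = 0.0736) and with the block -1.18 (SE 0.21, adjusted p = 0.00374). The mean log2 fold change was -0.74 (SE 0.20, adjusted p = 0.0293), 1.67-fold lower. This call ended in 10 of 18 fits that left out 1 library (4 of them at 2 dpi, with adjusted p up to 0.0799), and also without the filter (adjusted p = 0.0746), on the log2(TPM + 1) scale (0.122) and without all first replicates (0.0664). It passed with the block (adjusted p = 0.00154).

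tjp2a (ENSDARG00000063309, chromosome 10, 15857748 to 15921450), the other ZO-2 gene, is the scaffold with the highest TPM. It had 28.6, 58.7 and 96.1 CPM in unablated and 15.4, 15.7 and 35.3 CPM in ablated libraries at 2 dpi. At 4 dpi the values were 92.6, 195 and 115 against 70.9, 59.8 and 88.1 CPM, and at 7 dpi 243, 36.9 and 146 against 173, 52.7 and 77.2 CPM. The groups were apart at 4 dpi alone. Its log2 fold change at 2 dpi was -1.47 (SE 0.63, adjusted p = 0.242) without the block and -1.41 (SE 0.34, adjusted p = 0.0183) with it. In the mean over times it was -0.95 (SE 0.36, adjusted p = 0.114) and, with the block, -0.85 (SE 0.19, adjusted p = 0.0104).

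The genes for ZO-1 are tjp1a and tjp1b. tjp1a (ENSDARG00000077506, chromosome 7, 30659503 to 30873033) had 29.2, 39.6 and 52.9 CPM in unablated and 56.5, 54.3 and 75.6 CPM in ablated libraries at 2 dpi, where all ablated libraries were higher. At 4 and 7 dpi its 6 libraries lay between 45.9 and 99.3 and between 42.3 and 74.6 CPM, with overlap. The log2 fold change at 2 dpi was 0.61 (SE 0.36, adjusted p = 0.423) and its mean 0.15 (SE 0.21, adjusted p = 0.733). tjp1b (ENSDARG00000079374, chromosome 25, 31620575 to 31860433) had 7.71, 31.0 and 27.0 against 6.93, 14.9 and 32.1 CPM at 2 dpi. Its values were 23.2, 29.1 and 28.5 against 16.3, 14.4 and 16.2 CPM at 4 dpi, and 22.6, 32.4 and 54.8 against 8.58, 22.2 and 22.8 CPM at 7 dpi.

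The tjp1b groups were apart at 4 dpi. Its mean log2 fold change was -0.70 without the block (SE 0.33, adjusted p = 0.209) and -0.72 with it (SE 0.17, adjusted p = 0.0106). tjp3, the ZO-3 gene, reached at most 1.12 CPM, was at 0 in 8 libraries and passed in no comparison. Within libraries, the counts of tjp2b over those of tjp1a were 0.531 to 1.08 in unablated and 0.193 to 0.282 in ablated larvae at 2 dpi. All ablated libraries were lower in tjp2b and higher in tjp1a at 2 dpi, so this gap follows from those values and adds no further evidence. The ratios overlapped at 4 dpi (0.442 to 0.792 against 0.298 to 0.703) and 7 dpi (0.602 to 0.898 against 0.346 to 0.761).

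Of the abundant claudins cldn2 passed in no comparison. Its CPM was 288, 309 and 407 in unablated and 382, 316 and 256 in ablated libraries at 2 dpi. At 4 dpi it was 673, 309 and 594 against 647, 466 and 646, and at 7 dpi 468, 427 and 1257 against 300, 750 and 786. The groups overlapped at each time, and the mean log2 fold change was -0.05 (SE 0.28, adjusted p = 0.954).

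cldn5a stood at 231, 175 and 198 CPM in unablated and 372, 248 and 240 CPM in ablated libraries at 2 dpi, where all ablated libraries were higher. By 4 dpi the values were 175, 122 and 112 against 354, 173 and 265 CPM, and at 7 dpi 116, 139 and 210 against 195, 189 and 197 CPM. The ablated library was the higher in 8 of 9 pairs. The mean log2 fold change was 0.59 (SE 0.21, adjusted p = 0.0902), and 0.59 with the block (SE 0.12, adjusted p = 0.00633), a 1.51-fold rise. At 4 dpi it was 0.95 (SE 0.36, adjusted p = 0.303) without the block and 0.92 (SE 0.22, adjusted p = 0.0265) with it.

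The ratio of cldn2 to cldn5a in TPM was 1.04 to 1.71 in unablated and 0.853 to 1.06 in ablated libraries at 2 dpi, and cldn5a was the higher of the 2 in 2 of 18 libraries, both ablated and at 2 dpi. It was 2.10 to 4.40 against 1.52 to 2.25 at 4 dpi, and 2.55 to 4.98 against 1.28 to 3.31 at 7 dpi. Since claudin-5 is known from endothelium, 12 endothelial genes were read beside it. They summed to 2.14 to 18.1 CPM over all libraries, with ranges of 3.80 to 14.4 in unablated and 2.14 to 18.1 in ablated libraries at 2 dpi and of 3.32 to 8.48 against 2.98 to 7.04 at 4 dpi, and the endothelial cadherin cdh5 did not exceed 2.44 CPM.

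Claudin-19 is a main claudin of human RPE. In these libraries cldn19 (ENSDARG00000044569, chromosome 11, 38737638 to 38782921) was at rank 16 with 4.44 TPM. It had 11, 22.4 and 10.1 CPM in unablated and 5.26, 4.21 and 4.5 CPM in ablated libraries at 2 dpi, which did not overlap. Later values were at 4 dpi 10.7, 33.1 and 5.18 against 6.45, 12.7 and 2.84 CPM, and at 7 dpi 21.1, 49.8 and 8.62 against 16.3, 12.9 and 5.44 CPM, with overlap. The ablated library was lower in 9 of 9 pairs. Its mean log2 fold change was -1.33 (SE 0.42, adjusted p = 0.0604) without the block and -1.17 (SE 0.22, adjusted p = 0.00365) with it. The 2 dpi values were -1.64 (SE 0.73, adjusted p = 0.269) and, with the block, -1.54 (SE 0.39, adjusted p = 0.0234).

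cldn7a (chromosome 7, 22345055 to 22355696) and cldn7b (chromosome 10, 22175316 to 22250266) are both genes for claudin-7, an epithelial claudin. cldn7a was lower at 2 dpi with the block, and cldn7b was higher in the mean over times. cldn7a had 2.37, 40.4 and 7.84 CPM in unablated and 0.349, 3.77 and 2.60 CPM in ablated libraries at 2 dpi. Its groups overlapped at each time, with 2.30 to 23 against 5.32 to 15.4 CPM at 4 dpi and 12.8 to 79.3 against 6.88 to 46.7 CPM at 7 dpi. The log2 fold change at 2 dpi was -2.92 (SE 1.12, adjusted p = 0.184) without the block and -2.59 (SE 0.78, adjusted p = 0.0496) with it.

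cldn7b (ENSDARG00000014047) had low levels throughout. It had 1.88, 1.3 and 0 CPM in unablated and 3.52, 2.13 and 0.743 CPM in ablated libraries at 2 dpi, which overlapped. The 4 dpi values were 0.0760, 0.0426 and 0 against 8.03, 0.930 and 5.10 CPM, with no overlap. At 7 dpi no unablated library held a count, and the ablated libraries had 0, 4.61 and 2.81 CPM. With 3 counts per library granted to the unablated group, the mean level at 7 dpi was at least 25.0-fold higher, and at least 14.2-fold without ablated replicate 2. These limits cover counting error only and not the spread between libraries, as ablated replicate 1 was also at 0. The fitted mean log2 fold change was 5.75 (SE 1.2, adjusted p = 0.0103), a value that depends on how counts of 0 are treated and was 1.34 on the log2(TPM + 1) scale (adjusted p = 0.034). Unablated libraries exceeded 0.0760 CPM at 2 dpi alone (1.88 and 1.3 CPM), too few for the filter on low counts. The gene was therefore tested only because ablated libraries were high. Its direction was thus tied to the filter, and neither the call nor the limits are an independent sign of a rise.

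The surface epithelium and cornea list was read beside cldn7b, with 10 of its 11 genes found. Its sum was 109 to 440 CPM in unablated larvae against 174 to 463 CPM in ablated larvae at 4 dpi, and overlapped at all 3 times (41.5 to 192 against 97.6 to 362 at 2 dpi and 50.7 to 285 against 34.3 to 668 at 7 dpi), with 45.4% of the sum from krt97. Of its 9 tested genes 3 had a positive log2 fold change at 4 dpi (median -0.22) and 2 in the mean over times (median -0.93). krt97 had 425, 94.3 and 360 CPM in unablated and 46.7, 25.7 and 27.3 CPM in ablated libraries at 4 dpi, lower in all. Chosen after its values were seen, epcam, an epithelial adhesion gene, had 0.0380, 0 and 18.9 CPM in unablated and 145, 32.7 and 129 CPM in ablated libraries at 4 dpi. The keratin gene krt5 stayed below 1 CPM in all libraries but 1, unablated 2 dpi replicate 1, where it had 14.4 CPM, and agr1 was at most 0.362 CPM. The part of surface cells in the cldn7b result was not tested.

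cldn15a (ENSDARG00000036463, chromosome 7, 20559126 to 20565212) belongs to the claudin-15 genes, which form cation pores in the mammalian intestine. It rested on 139 counts in all, of which 137 were in ablated libraries. The unablated libraries held no count at 2 and 7 dpi and 2 counts at 4 dpi. Ablated libraries had 0.548, 2.00 and 0.0928 CPM at 2 dpi, 0.151, 0 and 0.0542 CPM at 4 dpi, and 0.0237, 0 and 1.53 CPM at 7 dpi. With 3 counts per library granted to the unablated group, the mean level was at least 8.11-fold higher at 2 dpi and at least 5.25-fold at 7 dpi. These limits cover counting error only and not the spread between libraries. Without ablated 2 dpi replicate 2 the first limit was 2.96-fold, and without ablated 7 dpi replicate 3 the mean of 0.0118 CPM lay under the floor of 0.0989 CPM and gave no limit. The ratio over all times was 62.9, with a 95% counting interval from 17.1 to 524. This interval pools the counts of all libraries and leaves out the spread between them.

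The fitted mean log2 fold change of cldn15a was 5.80 (SE 1.39, adjusted p = 0.0235). No unablated library exceeded 0.0213 CPM, so the gene passed the filter on low counts through ablated libraries alone. Its direction was thus tied to the filter, and neither the call nor the limits and ratio above are an independent sign of a rise. On the log2(TPM + 1) scale it was 0.51 (SE 0.21, adjusted p = 0.174). Without all first replicates it was 5.60 (adjusted p = 0.105). The gene also lost its call without ablated 4 dpi replicate 1 (5.35, adjusted p = 0.0509) and without ablated 7 dpi replicate 3, where it was 4.19 (adjusted p = 0.0766). Its paralog cldn15b (chromosome 5, 53262016 to 53308625), at 10.4 TPM, had a mean log2 fold change of -0.12 (SE 0.42, adjusted p = 0.915). cldn15b lay between 5.61 and 31.6 CPM in unablated and between 1.48 and 25.9 CPM in ablated libraries. In both groups replicate 1 was the highest at each time, at 31.6, 21.0 and 13.0 CPM in unablated and 25.9, 20.7 and 15.1 CPM in ablated larvae.

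cldn12 (chromosome 16, 43137566 to 43329751), a claudin that lacks the usual binding site for zonula occludens proteins in mammals, passed in no comparison with all libraries in either edgeR fit. Without all first replicates it passed in edgeR as higher at 7 than at 2 dpi in unablated larvae (log2 fold change 1.32, adjusted p = 0.0282). It had 50.3, 17.2 and 19.9 CPM in unablated and 64.1, 24.9 and 19.7 CPM in ablated libraries at 2 dpi, and 46.0 to 54.3 against 52.5 to 57.0 CPM at 4 dpi. At 7 dpi it had 36.0 to 63.5 against 37.9 to 41.9 CPM, and its mean log2 fold change was 0.08 (SE 0.26, adjusted p = 0.911).

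Occludin and MARVEL genes were at low levels, apart from tricellulin. marveld2a had 19.8, 5.43 and 7.26 CPM in unablated and 12.2, 7.36 and 4.55 CPM in ablated libraries at 2 dpi. It had 19, 15.4 and 16.7 against 18.1, 15.3 and 17.3 CPM at 4 dpi and 13.9, 10.4 and 10.2 against 6.59, 18.1 and 14.1 CPM at 7 dpi. The groups overlapped at every time, with a mean log2 fold change of -0.09 (SE 0.29, adjusted p = 0.907). oclna had at most 1.63 CPM, with 8 libraries at 0, and oclnb was at 0 in 11 libraries and did not pass the filter. marveld1 ranged from 0 to 3.04 CPM and was lower in all ablated libraries at 2 dpi, with 1.61, 1.48 and 1.09 against 0.573, 0.798 and 0.789 CPM (log2 fold change -0.95, SE 1.3, adjusted p = 0.799). Neither oclna nor marveld1 passed in any comparison.

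Among the 24 members with a mean below 1 TPM, single libraries held the highest level of several at once, a pattern chosen after its values were seen. Unablated 2 dpi replicate 1 was the highest for 5 (cldna, cldne, cldn1, marveld2b and cldnc), and ablated 7 dpi replicate 1 and ablated 2 dpi replicate 2 for 4 each. Some of these rest on very few counts, as cldnc had 9 in all and at most 2 in 1 library. How many would share a library by chance was not tested. In unablated 2 dpi replicate 1 the skin keratins krtt1c19e and krt4 stood at 77.2 and 48.9 CPM, above every other library, where krt4 reached at most 9.90 CPM and krtt1c19e 0.976 CPM. The whole surface epithelium list did not follow these keratins. It summed to 192 CPM in that library and to 668 CPM in ablated 7 dpi replicate 3. In ablated 7 dpi replicate 1 and ablated 2 dpi replicate 2 it summed to 34.3 and 97.6 CPM. cldnk, which marks oligodendrocytes in zebrafish, had its 2 highest values in unablated 4 dpi replicate 2 (3.43 CPM) and ablated 4 dpi replicate 3 (2.15 CPM), the 2 libraries with the most of the myelin gene mbpa (53.1 and 20.7 CPM). The whole oligodendrocyte and Schwann cell list, of which mbpa is 1 of 10 markers, summed to 133 and 53.0 CPM there. That list summed to 131 CPM in unablated 4 dpi replicate 1, where cldnk had 0.057 CPM. The remaining claudins not named above, cldn5b, cldn11a, cldn11b, cldni, cldn17, cldnb, cldnd and cldnh among those tested, and the claudin domain genes cldnd1a and cldnd1b, passed in no ablation comparison in either fit.

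Whether the ablation effect changed with time was tested directly. Between 2 and 7 dpi no member passed without the block (0% of all genes did, 4 members had an unadjusted p under 0.05 against 10.3% of all genes, and DESeq2 called cldna alone, against 1.44%), and 1 passed with the block, jam2a, against 4.29% of all genes. Its ablation effect was less negative at 7 than at 2 dpi by 1.37 on the log2 scale (SE 0.34, adjusted p = 0.0490 with the block), and by 1.28 without the block (SE 0.75, adjusted p = 0.605). Between 2 and 4 dpi none passed in either fit, against 0% and 0.0796% of all genes, with 2 members at an unadjusted p under 0.05 without the block (4.57% of all genes), 3 with it (11.8%) and none called by DESeq2 (0.124%).

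Time was also compared within each treatment, which the block cannot do. Larvae at 7 dpi were older than at 2 dpi, and libraries of unlike times may have been handled apart. Age, time since injury and handling cannot be told apart within a treatment. Between 2 and 7 dpi in unablated larvae no member passed, against 3.86% of all genes, with 5 members at an unadjusted p under 0.05 against 21% of all genes, and DESeq2 called 3 against 12.8%, cldn11a higher and cldna and cldn7b lower. In ablated larvae 2 members passed and both were higher at 7 dpi, tjp2a and tjp2b, against 6.75% of all genes. tjp2b went from 14.5 ± 0.797 CPM at 2 dpi to 33.8 ± 8.79 CPM at 7 dpi (SD, n = 3), and its log2 fold change was 1.22 (SE 0.35, adjusted p = 0.0436). tjp2a went from 22.1 ± 11.4 to 101 ± 63.3 CPM, and the log2 fold change was 2.19 (SE 0.64, adjusted p = 0.0498).

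Markers of other cells moved with this contrast of 7 against 2 dpi in ablated larvae. Of the retinal neuron genes 11 of 11 tested were positive and 3 passed as higher (median log2 fold change 3.12), with sums of 6.82 to 14.5 CPM at 2 dpi and 87.0 to 126 CPM at 7 dpi. Of 8 Mueller glia genes 2 passed as higher, with sums of 489 to 1179 and 2901 to 10300 CPM. Of the macrophage and microglia genes 11 of 11 were positive and none passed (median 6.62), with sums of 1.35 to 13.0 and 5.51 to 803 CPM. Their part in the tjp2a and tjp2b results was not tested. Both calls stood close to the threshold: tjp2b lost its call when any 1 of the 6 libraries compared was left out (adjusted p = 0.0647 to 0.133), and tjp2a when any but ablated 7 dpi replicate 2 was (1.55 without ablated 7 dpi replicate 1, adjusted p = 0.178). In unablated larvae the same contrast gave 0.33 for tjp2b (SE 0.34, adjusted p = 0.618) and 1.22 for tjp2a (SE 0.62, adjusted p = 0.276). The difference between the treatments is the change of the ablation effect above, 0.88 for tjp2b (SE 0.48, adjusted p = 0.568) and 0.97 for tjp2a (SE 0.87, adjusted p = 0.787). For jam2a in ablated larvae the log2 difference between 2 and 7 dpi was 1.40 (SE 0.54, adjusted p = 0.127). With limma on the log2(TPM + 1) scale jam2a passed (2.11, adjusted p = 0.00673), as did tjp2a and cldn7a (3.35 for cldn7a, adjusted p = 0.037). DESeq2 called tjp2a, tjp2b and cldn7a higher (3.67 for cldn7a, adjusted p = 0.00445) and cldni lower, where 3119 of 20093 genes passed.

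Junction partners outside the families were read from 4 lists. Of the scaffold and polarity list (34 of 38 symbols found, 32 tested) 2 fell at 2 dpi, against 2.25% of all genes, and 3 fell in the mean over times, against 8.03%, and none rose. pard3bb, of the Par-3 polarity family, had 9.98, 17.2 and 23.9 CPM in unablated and 2.79, 3.59 and 5.34 CPM in ablated libraries at 2 dpi, and the groups did not overlap. It had 34.5, 33.0 and 39.1 against 11.6, 15.0 and 12.8 CPM at 4 dpi, where they were also apart, and 40.8, 46.5 and 30.3 against 29.8, 25.0 and 16.2 CPM at 7 dpi, apart again. The log2 fold change was -2.13 at 2 dpi (SE 0.40, adjusted p = 0.0162) and -1.43 in the mean (SE 0.22, adjusted p = 0.00187). The 2 dpi call ended without unablated replicate 2, unablated replicate 3 or ablated replicate 2, with adjusted p up to 0.0671.

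crb1, a Crumbs gene that marks the apical side, had 12.0, 7.77 and 4.11 CPM in unablated and 0.175, 0.577 and 0.464 CPM in ablated libraries at 2 dpi. At 4 dpi it had 15.1, 25.6 and 31.8 against 2.34, 9.01 and 10.9 CPM, apart as well, and at 7 dpi 36.8, 1.45 and 18.7 against 14.7, 2.81 and 4.80 CPM. Its log2 fold change was -4.32 at 2 dpi (SE 1.00, adjusted p = 0.0350, a call that ended without any 1 of the 6 libraries, adjusted p = 0.0671 to 0.108) and -2.46 in the mean (SE 0.53, adjusted p = 0.00969). cgnl1, which encodes paracingulin, fell by 0.68 in the mean (SE 0.19, adjusted p = 0.0410) and lost that call in 14 of 18 fits without 1 library. The neuron, glia and photoreceptor sums given above moved with pard3bb and crb1 at 2 dpi, and their part was not tested.

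Of the adherens junction list (19 of 22 found, 18 tested) none passed at a single time and 1 rose in the mean (8.03% of all genes passed there), cdh1, the gene of E-cadherin. It had 3.24, 5.48 and 0.427 CPM in unablated and 281, 18.2 and 107 CPM in ablated libraries at 2 dpi. By 4 dpi it had 10.6, 9.67 and 1.37 against 267, 111 and 271 CPM, and at 7 dpi 9.17, 10.1 and 62.1 against 0.355, 23 and 184 CPM. The groups were apart at 2 and 4 dpi, and the mean log2 fold change was 3.91 (SE 0.86, adjusted p = 0.0112). cdh1 is also 1 of the 11 surface epithelium symbols.

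In the apical cortex list (12 of 17 found, 11 tested) 1 rose in the mean (8.03% of all genes passed), ezrb, a gene for ezrin, the linker of membrane and actin in RPE microvilli. It had 11, 5.57 and 6.87 against 25.8, 14.7 and 14.8 CPM at 2 dpi, 3.25, 9.80 and 4.49 against 22.9, 26.5 and 30.3 CPM at 4 dpi and 5.77, 6.19 and 10.2 against 12.9, 8.37 and 19.6 CPM at 7 dpi. The groups were apart at 2 and 4 dpi, and the mean log2 fold change was 1.43 (SE 0.28, adjusted p = 0.00591). The calls of pard3bb, crb1, cdh1 and ezrb in the mean passed whichever library was left out, but that of crb1 ended on the log2(TPM + 1) scale (-1.28, adjusted p = 0.105), as did its call at 2 dpi (-1.49, adjusted p = 0.501).

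Of the tricellular and immunoglobulin list (9 of 11 found, 7 tested) none passed without the block. Its genes with the highest TPM were ildr2, an angulin, with 39.7 to 108 CPM and a mean log2 fold change of 0.18 (SE 0.18, adjusted p = 0.636), and cxadr, a relative of the junctional adhesion molecules, with 4.74 to 43.4 CPM and 0.14 (SE 0.41). With the block the calls in the mean were 2 up and 9 down in the scaffold list, 3 up and 3 down in the adherens list, 3 up in the apical list and 1 up in the tricellular list, against 21.5% of all genes.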

How the data were processed

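The authors deposited counts and TPM of 34326 genes, separately by time. The counts, per the file headers, are total counts from paired, trimmed reads, and the TPM values were computed by the authors from the same reads. Positions follow GRCz10, per the submitters' processing notes and the deposited tables. Which aligner, counting program and strand setting were used is not given in the sources used here, so antisense and near-identical genes may share counts. SMART-Seq v4 gave the cDNA and Nextera XT the libraries, per the labels' protocols. Levels are counts scaled to CPM with TMM factors, and levels are set side by side between genes in TPM.

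filterByExpr of edgeR by group kept 20093 of 29481 genes with a count. A robust quasi-likelihood model held 6 group means over 18 libraries (12 residual degrees of freedom, common biological variation 79.9%), and the threshold was an adjusted p of 0.05 over all tested genes. Log2 fold changes carry an SE. Replicate numbers, which the labels give, paired the samples: after removal of group means, the correlation of the 2 libraries of 1 number ran from 0.187 to 0.593, against at most 0.183 for libraries of unlike numbers. Removing means of 3 libraries ties these values together, so that a high one lowers the others and part of the gap is built in. The block adds these 9 pairs (6 residual degrees of freedom). Groups at 0 counts were granted 3 counts per library and those at 1 to 3 counts given an exact 95% interval, an alternative added after the data were seen, as was leaving each ablated library out of these limits, and both cover counting error only.

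Alternatives were DESeq2, size factors of the RLE method, no filter, log2(TPM + 1) with limma, only libraries of the times compared, no first replicates, and each library left out. Members and lists were chosen with earlier results of these data known. Genes named are those called without the block, those called by ablation with it, the 10 highest in TPM and the small families. From partner lists up to 4 genes called by ablation, or else 2 by TPM, are named. Of these steps the edgeR fits alone were tested on simulated counts, which held large changes and no pairing of replicates. Versions were R 4.3.3, edgeR 4.0.16, limma 3.58.1, DESeq2 1.42.0, Python 3.11.15, pandas 2.3.3, scipy 1.17.1 and matplotlib 3.10.9.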

Additional observations from a re-analysis of the deposited data

Results flagged for a closer look

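The ablation effect on jam2a differed between times in a test of that difference. With the 9 replicate pairs as a block, it was less negative at 7 than at 2 dpi by 1.37 on the log2 scale (SE 0.34, adjusted p = 0.0490), in edgeR's quasi-likelihood test with Benjamini-Hochberg adjustment. Ablated libraries held 5.73, 30.9 and 20.6 CPM at 2 dpi and 59.2, 59.0 and 33.2 CPM at 7 dpi. Over the other settings the difference was 0.88 to 1.77 with an adjusted p of 0.364 or more, so the call rests on the block.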

How the results depend on the processing

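None of the gene results followed through the alternatives, which were chosen because a fit had called them, changed direction. Signs of uncalled members did change: at 2 dpi 14 of the 35 were positive without the block and 17 with it. The replicate block moved the number of members called from 1 to 5 at 2 dpi, from 0 to 3 at 4 dpi, from 4 to 8 in the mean over times and from 0 to 1 for the change between 2 and 7 dpi, and left 0 at 7 dpi and for the change between 2 and 4 dpi. DESeq2 gave 3, 2 and 1 at 2, 4 and 7 dpi, 6 in the mean and 1 for the change between 2 and 7 dpi. It gave 3 and 4 for time in unablated and ablated larvae. Of all 20093 tested genes it called 1745 at 2 dpi, 2937 in the mean and 3119 for time in ablated larvae. With only libraries of the times compared the counts were 0 at 2 dpi, 1 at 4 dpi and 0 for time in ablated larvae. Without the filter they were 1 at 4 dpi, 3 in the mean and 0 for time in ablated larvae, and with RLE 0 for time in ablated larvae. With log2(TPM + 1) they were 1 at 4 dpi and 2 in the mean, and for time in ablated larvae tjp2a, cldn7a and jam2a passed. Without all first replicates they were 2 in the mean, 2 for time in unablated and 0 in ablated larvae. Leaving out 1 library gave 0 to 1 at 2 dpi, 2 to 5 in the mean, and 0 to 1 for time in unablated and in ablated larvae. For the settings after DESeq2 no share of all genes is given, and nothing about the members is read from their counts. Of 372 gene results without 1 library 289 kept their side of the threshold, 80 lost and 3 gained a call. TPM moved the median of all genes between 2 and 7 dpi from 0.13 to 0.33 in unablated and from 0.11 to 0.24 in ablated larvae. Apart from fewer libraries or genes, the cause was not tested. With 3 libraries a group and 79.9% variation, small changes and genes near 0 counts could not be resolved.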
